A study of Rattus norvegicus with 12 samples.

Results

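The DNA replication and repair genes are the genes whose proteins copy the genome in the S phase of the cell cycle, together with genes that supply nucleotides, rebuild chromatin, switch on the S phase programme and repair broken or stalled replication forks. The list holds 57 rat genes. Probes were matched to them through the RefSeq identifier printed for each probe in the array files, with the version ignored. In this way 50 of the 57 genes had a probe, 49 had a probe that was tested, and 46 had a probe above background on all 12 arrays. Over the whole array, 16581 named genes had a probe and 10732 were tested.

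Before a cell copies its DNA, the origin recognition complex, Cdc6 and Cdt1 load rings of MCM proteins onto chromatin, and kinases and further factors then turn each ring into a running helicase. Primase, the replicative polymerases, the Pcna clamp and its loader build the new strands, ribonucleotide reductase and thymidylate enzymes supply the building blocks, and E2F transcription factors switch many of these genes on together. Myoblasts divide, and leave the cell cycle when they fuse into myotubes, so in muscle these genes are known as marks of dividing, undifferentiated cells.

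The study used L6 cells, a rat skeletal muscle line whose myoblasts fuse into multinucleated myotubes in culture. Myotubes received GR24, a synthetic strigolactone (a class of plant hormones), or pinosylvin or resveratrol, related plant stilbenes of which resveratrol carries a further hydroxyl group, or the solvent DMSO as control. Gene expression was measured on Agilent rat arrays in a single colour. There were 3 arrays in each of the 4 groups, from 3 independent experiments with cells of the same batch.

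The compounds were given at 60 µM for 24 h, and the control cells had the solvent for the same time. The labels give 6 days of differentiation, and the methods of the paper give 1 day more. What limits the model is that it is a single rat cell line from a single batch of cells, with a single dose and a single time. Each group always lay in the same column of the slides, so column and group cannot be told apart. Slide 1 carried replicates 1 and 2 of every group and slide 2 carried replicate 3.

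Each array had 58717 spots for 45598 probes. Between 58% and 64.3% of the spots of an array were well above background, no spot was saturated, and the 75th percentile of the signal lay between 4045 and 5707 intensity units. Within a group, the correlation across probes between arrays was 0.9913 to 0.998, where the probes of an array are not independent replicates. A level below is the log2 signal less the 75th percentile of its own array, so that a level of 0 is the signal that 75% of the probes do not exceed. A probe was tested where at least 1 group had it well above background in each of its 3 replicates, and a gene is represented by its tested probe with the highest mean level. Levels of different probes cannot be compared with each other.

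Of the members, Mcm5, Rpa1, Chaf1a, Uhrf1, E2f8, Blm and Clspn had no probe that could be matched, and the probe of Dnmt1 was not tested. Orc1 was above background on the 3 control arrays only. Mcm10 was above background on 1 of the 3 GR24 arrays and E2f7 on 2 of them. These 3 genes passed the filter through the groups in which they were higher, so the counts are also given from a separate fit of only the probes above background on all arrays, which holds 46 members and adjusts p over those probes.

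The first question was what each compound did to these genes against the solvent. Levels of most of the tested members were lower with each of the compounds. The median difference over all tested members was largest with GR24, though this did not hold for every member or role group. With GR24, 47 of the 49 tested members fell, 1 rose (Prim1) and 1 did not pass the test (Tyms). Pinosylvin lowered 43 members and resveratrol lowered 43, and limma called none higher with either, also at an unadjusted p under 0.05 (0 and 0). The control arrays are shared by the 3 comparisons, so the comparisons are not independent of each other. In bulk samples, fewer cells of a type and less RNA per cell cannot be told apart.

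A gene passed the test, and is said to have risen or fallen, where its limma p, adjusted over all 24262 tested probes, was under 0.05. Among all 10732 named genes tested, 26.7% were lower and 36.1% were higher with GR24. With pinosylvin 9.77% were lower and 8.6% were higher, and with resveratrol 10.3% were lower and 8.64% were higher. With the replicate number as a block, the genes lower and higher were 1535 and 1840 with pinosylvin, in place of 1049 and 923, and 1648 and 1693 with resveratrol, in place of 1104 and 927. These counts were 677 and 475 with pinosylvin and 709 and 489 with resveratrol when no filter was used. In fits of only the 6 arrays compared, they were 704 and 504 with pinosylvin and 810 and 557 with resveratrol. The median log2 difference of the tested members was -1.11 with GR24 (range -3.0 to 0.18), -0.72 with pinosylvin (range -1.61 to -0.18) and -0.65 with resveratrol (range -1.30 to -0.18, where -1.30 is that of Orc1, not above background with resveratrol). Over all named genes the medians were 0.08, 0.04 and 0.02. With Orc1 set at the limit that its background allows, the GR24 median was -1.10. In the separate fit of 46 members, 44, 42 and 43 were lower and 1, 0 and 0 were higher, with medians of -1.09, -0.71 and -0.65, and Rfc5 passed there with resveratrol (-0.34, adjusted p 0.0449). Of the 9806 named genes in that fit, 2590 were lower and 3743 higher with GR24. These counts were 996 and 954 with pinosylvin, and 1047 and 948 with resveratrol.

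**Figure D1:**
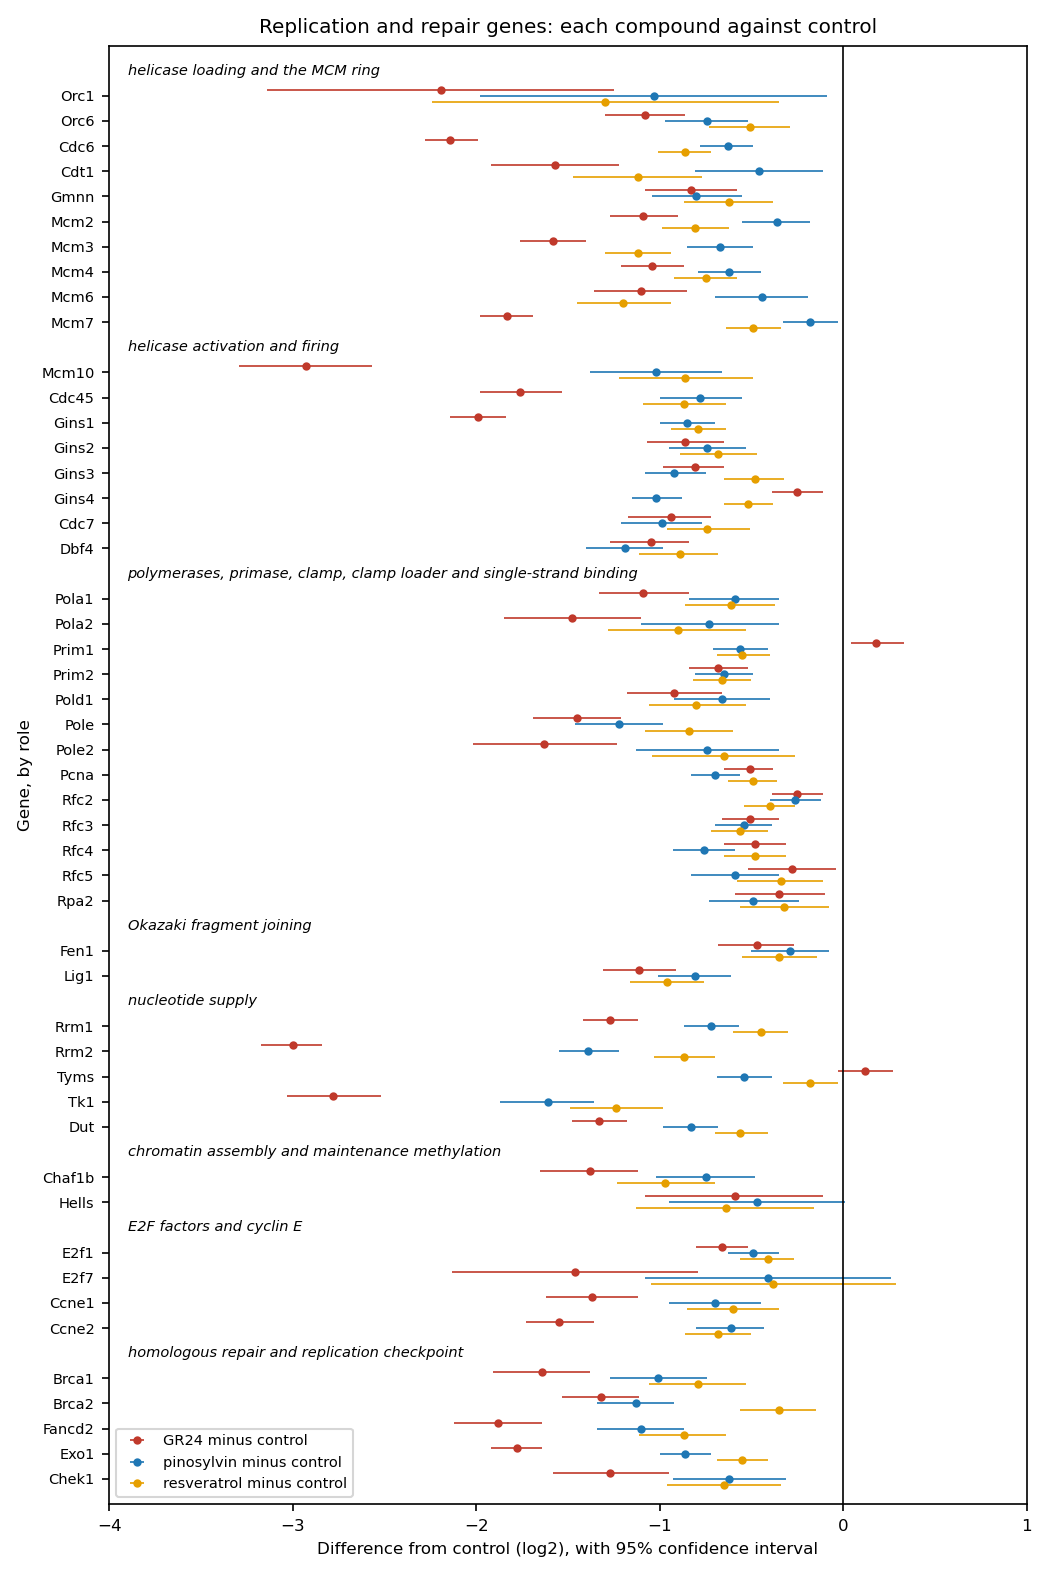
Log2 difference from control of each tested member with GR24, pinosylvin and resveratrol, grouped by role, with bars for the 95% interval. Most points lie below 0, and the GR24 points reach -3.0.

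The fall was more than 2-fold for 30 members with GR24, for 9 with pinosylvin and for 4 with resveratrol. The share of all named genes past this fold was not counted, and the shares given above have no fold limit. On the scale of single arrays, the 3 GR24 arrays all lay below the 3 control arrays for 46 of the 49 members, and all lay above them for 1. The same held for 48 members below with pinosylvin and 48 with resveratrol, and for 0 above with either. How many of all named genes separate in this way was not counted, so these numbers describe the members only. GR24 had the lowest mean of the 3 compounds for 35 members, pinosylvin for 10 and resveratrol for 4, and this was not counted over all named genes. The 35 include Orc1, whose order among the compounds is not a measurement, since it was above background with none of them.

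Taken array by array, the median member stood 0.01, 0.06 and -0.06 from the control mean on the control arrays and -1.07, -1.18 and -1.16 from it on the GR24 arrays. It stood -0.74, -0.73 and -0.68 from the control mean on the pinosylvin arrays and -0.65, -0.58 and -0.66 on the resveratrol arrays. The 4 groups did not overlap in this median, and the GR24 arrays were the lowest. With the slide as a block the medians were -1.11, -0.72 and -0.65. Within slide 1 they were -1.19, -0.74 and -0.65, and within slide 2, which holds 1 array of each group, they were -1.24, -0.59 and -0.73.

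Below, 3 log2 differences from control in a row stand in the order GR24, pinosylvin, resveratrol, and the standard error (SE) of a gene is the same for each of them. A value passed the test unless the text says otherwise.

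The first role group loads the helicase. All 10 tested genes of helicase loading and the MCM ring fell with GR24, 7 fell with pinosylvin and 9 with resveratrol, with median differences of -1.34, -0.63 and -0.84. These medians take in the Orc1 differences, which are not measured sizes. With Orc1 at its limit of 1.74-fold, the GR24 median lies between Mcm6 (-1.10) and Mcm2 (-1.09). Orc1, the largest subunit of the origin recognition complex, had levels of -4.23, -4.02 and -4.08 on the control arrays and -5.09, -6.73 and -7.10 on the GR24 arrays. It had levels of -5.02, -5.60 and -4.81 with pinosylvin and -5.24, -5.65 and -5.33 with resveratrol. Every treated array lay below every control array, and none of the treated arrays was above background for Orc1. The GR24 difference passed the test (adjusted p 0.00118) and the fall was at least 1.74-fold, while pinosylvin (adjusted p 0.134) and resveratrol (adjusted p 0.0639) did not pass it. These 2 calls also depend on single arrays, since pinosylvin passed without GR24 1 and resveratrol passed without GR24 1 or GR24 3 and with the replicate number as a block. No size is given for them, since neither group was above background.

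Orc6, a small subunit of the same complex, fell with all 3 compounds (-1.08, -0.74 and -0.51, SE 0.1), though its resveratrol call was lost with normexp background correction and quantile normalization (-0.22, adjusted p 0.178) and in the deposited values (-0.27, adjusted p 0.228). Cdc6, the ATPase that helps to load the ring, fell most with GR24 (-2.14, -0.63 and -0.86, SE 0.065). Cdt1, its partner in loading, fell with GR24 and resveratrol (-1.57 and -1.12, SE 0.16), and its pinosylvin difference of -0.46 did not pass the test (adjusted p 0.0719). Without control 3 the pinosylvin difference of Cdt1 was -0.62 and passed. Gmnn, geminin, holds Cdt1 back outside its time of use. Its levels were 0.79, 1.07 and 0.85 on the control arrays, 0.04, 0.16 and 0.03 with GR24, -0.08, 0.07 and 0.33 with pinosylvin, and 0.27, 0.19 and 0.38 with resveratrol. The control arrays were the highest, and the arrays of the 3 compounds overlapped each other in part. Gmnn fell by much the same amount with each (-0.83, -0.80 and -0.62, SE 0.11), with adjusted p of 9.22e-05, 0.000784 and 0.00343.

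The MCM proteins form the ring-shaped helicase itself. Mcm7 differed most between compounds, since it fell with GR24 and resveratrol (-1.83 and -0.49, SE 0.067) while its pinosylvin difference of -0.18 did not pass the test (adjusted p 0.102). Mcm3 fell with each compound (-1.58, -0.67 and -1.12, SE 0.082). A second Mcm3 probe, with a single spot against 10 for the first, gave -0.61, -0.14 and -0.60 (SE 0.19), of which only the first passed (adjusted p 0.0161, 0.688 and 0.0513). Mcm2 fell with each compound (-1.09, -0.36 and -0.81, SE 0.083), and so did Mcm4 (-1.04, -0.62 and -0.75, SE 0.077) and Mcm6 (-1.10, -0.44 and -1.20, SE 0.11). The pinosylvin calls were the weakest of the MCM genes. Mcm2 did not pass with pinosylvin without control 1 (-0.34) or pinosylvin 1 (-0.35). Mcm6 did not pass with pinosylvin without control 1 (-0.39), control 2 (-0.40), pinosylvin 1 (-0.44), pinosylvin 2 (-0.45) or pinosylvin 3 (-0.44). Cdt1 and Mcm7 also passed with pinosylvin when the replicate number was a block.

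All 8 genes of helicase activation and firing fell with each of the 3 compounds, with median differences of -1.0, -0.95 and -0.76. Mcm10, a factor that helps to start the loaded helicase, had levels of -1.62, -1.75 and -1.79 on the control arrays and -4.47, -4.62 and -4.86 on the GR24 arrays. Its levels were -2.62, -2.59 and -3.02 with pinosylvin and -2.67, -2.26 and -2.80 with resveratrol. The GR24 arrays stood apart at the bottom, and the pinosylvin and resveratrol arrays overlapped. The differences of Mcm10 were -2.93, -1.02 and -0.86 (SE 0.16), and the GR24 value (adjusted p 1.31e-07) rests on a group with 1 of 3 arrays above background. Gins4, a subunit of the GINS complex that rides with the helicase, had the smallest GR24 fall of the group. Its levels were 0.57, 0.59 and 0.61 on the control arrays, 0.32, 0.36 and 0.35 with GR24, -0.54, -0.39 and -0.35 with pinosylvin, and 0.07, 0.08 and 0.07 with resveratrol. No 2 groups overlapped, and pinosylvin was the lowest of them. The differences of Gins4 were -0.25, -1.02 and -0.52 (SE 0.061), with adjusted p of 0.00504, 2.47e-06 and 0.000299.

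Among the other activation genes, Gins1 fell most with GR24 (-1.99, -0.85 and -0.79, SE 0.068). Cdc45, which joins GINS and the MCM ring in the running helicase, also fell most with GR24 (-1.76, -0.78 and -0.87, SE 0.1). Gins2 fell by similar amounts with each compound (-0.86, -0.74 and -0.68, SE 0.095). Gins3 fell most with pinosylvin (-0.81, -0.92 and -0.48, SE 0.074). Cdc7 is the kinase that fires origins, and it fell with each compound (-0.94, -0.99 and -0.74, SE 0.1). Dbf4, the subunit that activates Cdc7, did so too (-1.05, -1.19 and -0.89, SE 0.096).

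The polymerases, primase, clamp, clamp loader and single-strand binding genes showed the smallest GR24 median of the large groups, -0.51, beside -0.65 with pinosylvin and -0.56 with resveratrol. Of its 13 tested genes, 12 fell and 1 rose with GR24, 13 fell with pinosylvin and 11 fell with resveratrol. Prim1, the catalytic subunit of primase, was the member that rose. Its levels were 3.12, 2.95 and 2.99 on the control arrays, 3.19, 3.26 and 3.16 with GR24, 2.47, 2.41 and 2.50 with pinosylvin, and 2.42, 2.52 and 2.48 with resveratrol. The GR24 arrays lay just above the control arrays, and the arrays of both stilbenes lay well below them. The differences of Prim1 were 0.18, -0.56 and -0.55 (SE 0.066), with adjusted p of 0.0336, 0.000251 and 0.000347. The rise with GR24 did not pass without control 2 (0.15), control 3 (0.17), GR24 1 (0.19) or GR24 2 (0.16). Prim2, the other primase subunit, fell by much the same amount with each compound (-0.68, -0.65 and -0.66, SE 0.072).

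Pole2, a subunit of polymerase epsilon, had the largest GR24 fall of the group. Its levels were -2.25, -2.19 and -1.94 on the control arrays, -3.81, -4.01 and -3.43 with GR24, -3.09, -2.98 and -2.53 with pinosylvin, and -2.90, -2.64 and -2.79 with resveratrol. The GR24 arrays were the lowest, and the stilbene arrays lay between and overlapped. The differences of Pole2 were -1.63, -0.74 and -0.65 (SE 0.18), with adjusted p of 1.96e-05, 0.0166 and 0.0301. It did not pass with pinosylvin without control 3 (-0.65), pinosylvin 1 (-0.63) or pinosylvin 2 (-0.68). It did not pass with resveratrol without control 1 (-0.71), control 2 (-0.68), control 3 (-0.56), resveratrol 1 (-0.58) or resveratrol 3 (-0.64). Pole, the catalytic subunit, fell with each compound (-1.45, -1.22 and -0.84, SE 0.11). A second probe of Pole gave -0.72, -0.48 and -0.38 (SE 0.4), none of which passed (adjusted p 0.15, 0.485 and 0.604).

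Pola1, the catalytic subunit of polymerase alpha, fell with each compound (-1.09, -0.59 and -0.61, SE 0.11). So did its partner Pola2 (-1.48, -0.73 and -0.90, SE 0.17), which did not pass with pinosylvin without control 1 (-0.63) or pinosylvin 2 (-0.66). Pold1, the catalytic subunit of polymerase delta, fell as well (-0.92, -0.66 and -0.80, SE 0.12). Pcna is the sliding clamp that keeps polymerases on DNA, and it fell most with pinosylvin (-0.51, -0.70 and -0.49, SE 0.061).

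Rfc2 to Rfc5 are clamp loader genes and Rpa2 is a single-strand binding gene. Rfc3 fell with each compound (-0.51, -0.54 and -0.56, SE 0.069), and Rfc4 did too (-0.48, -0.76 and -0.48, SE 0.076). Rfc2 fell as well (-0.25, -0.26 and -0.40, SE 0.063), though its pinosylvin call was lost without control 2 (-0.23), pinosylvin 1 (-0.23) or pinosylvin 2 (-0.24). The GR24 call of Rfc2 was lost with quantile normalization (-0.16), also after normexp (-0.14), and in the deposited values (-0.15), and its pinosylvin call was lost in the last 2 of these (-0.18 in both). Rfc5 fell with GR24 and pinosylvin (-0.28 and -0.59, SE 0.11), and its resveratrol difference of -0.34 did not pass the test (adjusted p 0.0533). The GR24 call of Rfc5 was lost without control 1 (-0.26), control 2 (-0.23), GR24 1 (-0.30), GR24 3 (-0.22), pinosylvin 1 (-0.28) or resveratrol 1 (-0.28), and resveratrol passed without control 3 (-0.42) or GR24 3 (-0.34). Rpa2 fell with GR24 and pinosylvin (-0.35 and -0.49, SE 0.11), and its resveratrol difference of -0.32 did not pass (adjusted p 0.0711). The GR24 call of Rpa2 was lost without control 1 (-0.30), control 2 (-0.31) or GR24 3 (-0.26), the pinosylvin call was lost without control 1 (-0.44), and resveratrol passed without control 3 (-0.41). Rfc5 and Rpa2 also passed with resveratrol when the replicate number was a block. Quantile normalization (-0.34 and -0.33), also after normexp (-0.31 and -0.35), and the percentile over spots (-0.36 and -0.33) gave the same calls. Rpa2 passed with resveratrol in the deposited values too (-0.35).

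Okazaki fragments, the short pieces of the lagging strand, are trimmed by Fen1 and sealed by Lig1. Lig1 had levels of 4.51, 4.70 and 4.34 on the control arrays, 3.44, 3.38 and 3.39 with GR24, 3.65, 3.75 and 3.72 with pinosylvin, and 3.67, 3.50 and 3.50 with resveratrol. Every treated array lay below every control array. The differences of Lig1 were -1.11, -0.81 and -0.96 (SE 0.091), with adjusted p of 2.33e-06, 0.000173 and 7.7e-05. Fen1 had levels of 4.33, 4.45 and 4.11 on the control arrays, 3.90, 3.84 and 3.72 with GR24, 3.98, 4.06 and 3.99 with pinosylvin, and 4.07, 3.90 and 3.89 with resveratrol. Its treated arrays also lay below the control arrays, by less. Fen1 fell with GR24 and resveratrol (-0.47 and -0.35, SE 0.094, adjusted p 0.00134 and 0.0298), and its pinosylvin difference of -0.29 did not pass (adjusted p 0.0622). The resveratrol call was lost without control 1 (-0.33), control 2 (-0.27), resveratrol 2 (-0.32) or resveratrol 3 (-0.31), and pinosylvin passed without control 3 (-0.38) and with the replicate number as a block. Pinosylvin also passed with quantile normalization (-0.29), also after normexp (-0.28), and with normexp before the percentile (-0.30). It did so too in the deposited values (-0.29) and with the percentile over spots (-0.28).

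Of the 5 nucleotide supply genes, 4 fell with GR24, 5 with pinosylvin and 4 with resveratrol, with median differences of -1.33, -0.83 and -0.56. Rrm2, the small subunit of ribonucleotide reductase, had levels of 6.68, 6.83 and 6.71 on the control arrays and 3.73, 3.79 and 3.70 with GR24. Its levels were 5.22, 5.41 and 5.43 with pinosylvin and 5.82, 5.93 and 5.85 with resveratrol. The 4 groups did not overlap and stood in the order control, resveratrol, pinosylvin, GR24. The differences of Rrm2 were -3.0, -1.39 and -0.87 (SE 0.074), and the GR24 value is an 8.01-fold fall (adjusted p 5.29e-10). Rrm1, the large subunit, fell less (-1.27, -0.72 and -0.45, SE 0.067). Tk1, the thymidine kinase of dividing cells, fell with each compound (-2.78, -1.61 and -1.24, SE 0.12), and a second Tk1 probe gave -2.10, -1.37 and -0.74 (SE 0.087), which all passed. Dut, which removes dUTP from the pool, fell with each compound (-1.33, -0.83 and -0.56, SE 0.067).

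Tyms, thymidylate synthase, was the member that did not pass the test with GR24. Its levels were -1.40, -1.35 and -1.28 on the control arrays, -1.23, -1.14 and -1.31 with GR24, -1.93, -1.91 and -1.82 with pinosylvin, and -1.57, -1.52 and -1.48 with resveratrol. The GR24 and control arrays overlapped, and the pinosylvin arrays were the lowest. The pinosylvin difference of -0.54 passed (adjusted p 0.000352), while 0.12 with GR24 (adjusted p 0.157) and -0.18 with resveratrol (adjusted p 0.0997) did not (SE 0.067). Within slide 1 the GR24 difference of Tyms was 0.19 and passed, and within slide 2, with 1 array of each group and no test, it was -0.03.

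Of the genes for chromatin assembly and maintenance methylation, 2 of 5 were tested. Chaf1b, a subunit of the factor that places histones behind the fork, had levels of 2.52, 2.78 and 2.27 on the control arrays, 1.19, 1.12 and 1.11 with GR24, 1.71, 1.86 and 1.76 with pinosylvin, and 1.72, 1.52 and 1.44 with resveratrol. The GR24 arrays were the lowest and the control arrays the highest. Chaf1b fell with each compound (-1.38, -0.75 and -0.97, SE 0.12), with adjusted p of 3.87e-06, 0.00196 and 0.000421. Hells, a chromatin remodeller that helps to keep DNA methylated, had levels of -0.90, -0.74 and -0.48 on the control arrays, -1.21, -0.85 and -1.84 with GR24, -1.25, -1.30 and -0.97 with pinosylvin, and -1.47, -1.30 and -1.29 with resveratrol. GR24 2 lay among the control arrays, and the other treated arrays lay below them. The GR24 difference of -0.59 passed (SE 0.22, adjusted p 0.0374), while -0.47 with pinosylvin (adjusted p 0.18) and -0.64 with resveratrol (adjusted p 0.0697) did not. The GR24 call of Hells was lost without control 2 (-0.61), control 3 (-0.48), GR24 1 (-0.64), GR24 3 (-0.32) or resveratrol 2 (-0.59), and within slide 1 it was -0.21. Pinosylvin passed without GR24 3 (-0.47), and resveratrol passed without GR24 2 or GR24 3 (-0.64 in both). A second Hells probe gave -0.52, -0.14 and -0.49 (SE 0.12), of which GR24 and resveratrol passed (adjusted p 0.00317, 0.482 and 0.0165).

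E2F factors and cyclin E control the entry into S phase. All 4 tested genes of this group fell with GR24, 3 fell with pinosylvin and 3 with resveratrol, with median differences of -1.41, -0.55 and -0.51. Ccne2, a cyclin E that drives Cdk2, had levels of 2.25, 2.16 and 2.24 on the control arrays, 0.76, 0.74 and 0.50 with GR24, 1.58, 1.52 and 1.71 with pinosylvin, and 1.53, 1.57 and 1.51 with resveratrol. The GR24 arrays stood apart from the stilbene arrays, which overlapped each other. Ccne2 fell with each compound (-1.55, -0.61 and -0.68, SE 0.082), with adjusted p of 9.56e-08, 6e-04 and 0.000355. Ccne1, the other cyclin E, also fell most with GR24 (-1.37, -0.70 and -0.60, SE 0.11). E2f1, an activating E2F factor, had levels of 3.09, 3.19 and 3.03 on the control arrays, 2.44, 2.47 and 2.42 with GR24, 2.59, 2.64 and 2.62 with pinosylvin, and 2.77, 2.69 and 2.62 with resveratrol. All of its treated arrays lay below the control arrays. E2f1 fell with each compound (-0.66, -0.49 and -0.41, SE 0.064), with adjusted p of 8.69e-06, 0.000523 and 0.00157. E2f7, an E2F factor that represses, fell with GR24 (-1.46, SE 0.3), and -0.41 with pinosylvin (adjusted p 0.427) and -0.38 with resveratrol (adjusted p 0.476) did not pass. Both of these E2f7 differences passed with the replicate number as a block.

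All 5 tested genes of homologous repair and the replication checkpoint fell with each compound, with median differences of -1.64, -1.01 and -0.65. Fancd2, which gathers at DNA crosslinks and stalled forks, had levels of -2.15, -2.18 and -2.27 on the control arrays, -4.01, -4.06 and -4.17 with GR24, -3.28, -3.14 and -3.49 with pinosylvin, and -3.16, -2.89 and -3.18 with resveratrol. The GR24 arrays were the lowest, and the stilbene arrays overlapped below the control arrays. Fancd2 fell with each compound (-1.88, -1.10 and -0.87, SE 0.11), with adjusted p of 1.46e-07, 6.12e-05 and 0.00036. Chek1, the kinase that holds the cycle when forks stall, had levels of -1.03, -0.98 and -0.77 on the control arrays, -2.28, -2.11 and -2.20 with GR24, -1.50, -1.78 and -1.37 with pinosylvin, and -1.87, -1.44 and -1.43 with resveratrol. Its order of groups was the same, with the stilbene arrays overlapping. Chek1 fell with each compound (-1.27, -0.62 and -0.65, SE 0.14, adjusted p 2.33e-05, 0.0131 and 0.0101), and its pinosylvin call was lost without pinosylvin 2 (-0.50).

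Brca1, which helps to prepare broken ends for repair, fell with each compound (-1.64, -1.01 and -0.79, SE 0.12). Exo1, a nuclease that trims such ends, fell as well (-1.78, -0.86 and -0.55, SE 0.063). Brca2, a homologous repair gene, fell nearly as much with pinosylvin as with GR24 and less with resveratrol (-1.32, -1.13 and -0.35, SE 0.094). The resveratrol call of Brca2 was lost without control 1 (-0.29), control 2 (-0.36), resveratrol 1 (-0.38), resveratrol 2 (-0.31) or resveratrol 3 (-0.38). A second Brca2 probe gave -0.90, -1.16 and -0.22 (SE 0.2), of which resveratrol did not pass (adjusted p 0.003, 0.00309 and 0.547).

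**Figure D2:**
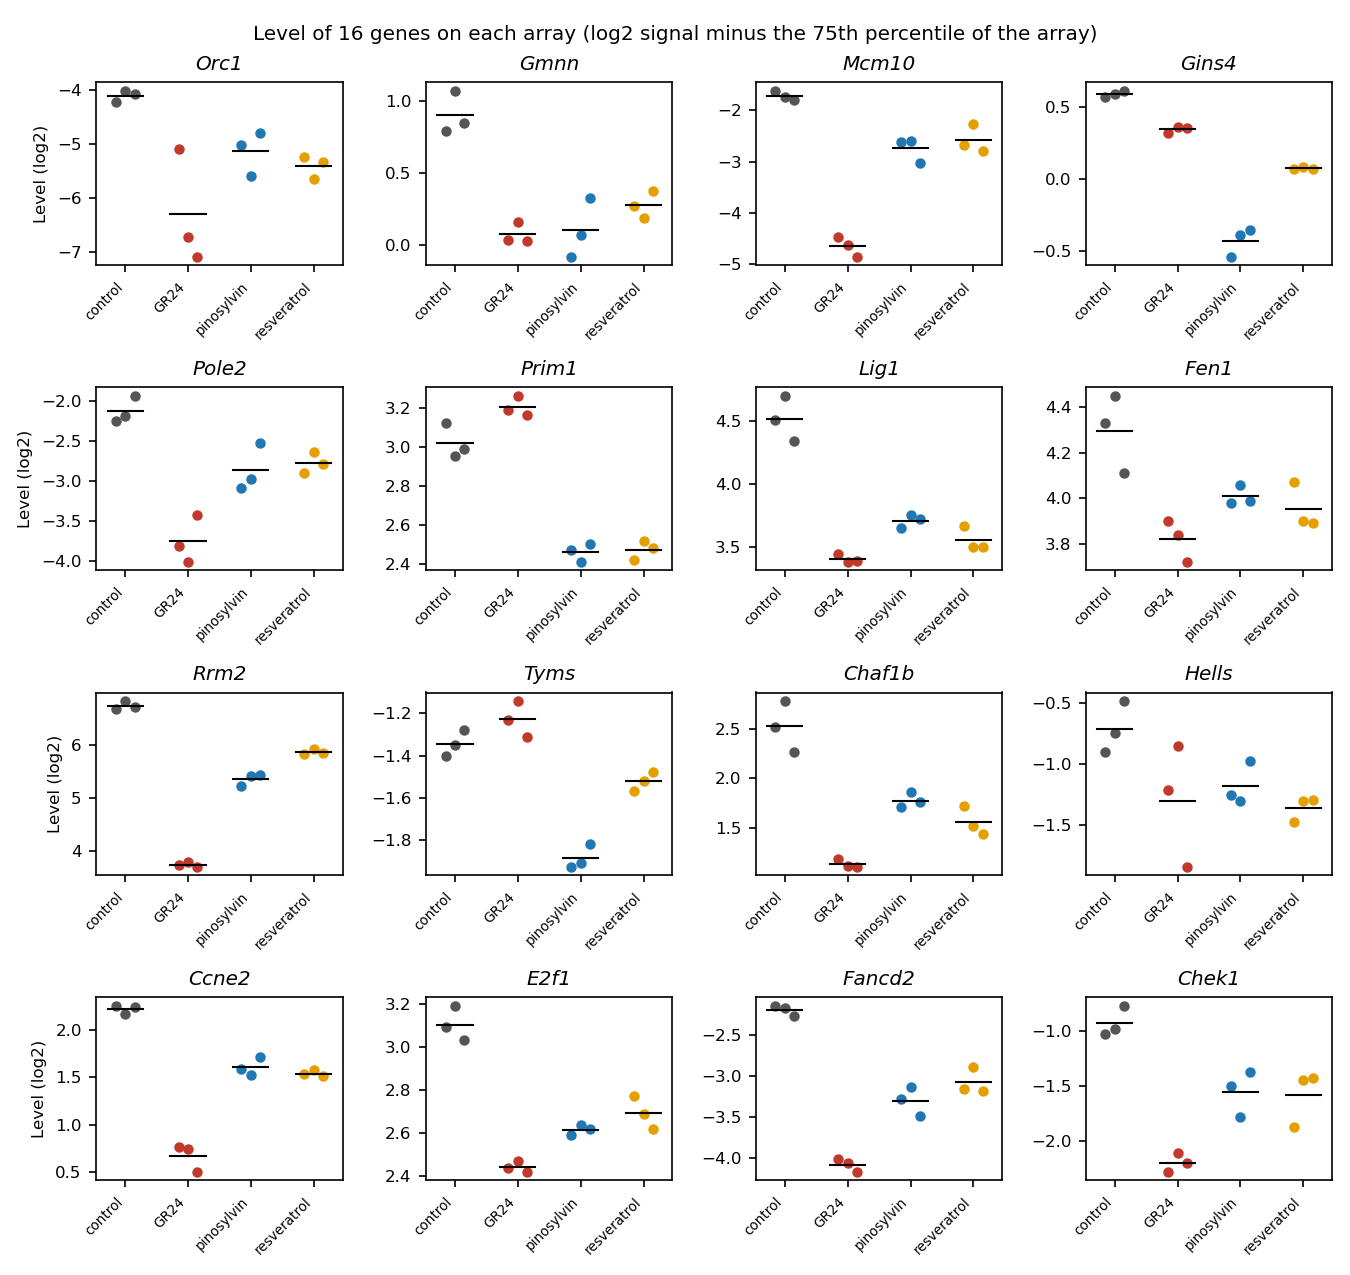
Level on each array (log2 signal less the array's 75th percentile) of the members given array by array, with a point for each array and a bar for the mean of each group. The Prim1 and Tyms points of GR24 lie near those of control, with the Prim1 points above them and the Tyms points overlapping, and the Rrm2 and Mcm10 points of GR24 lie far below.

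In the fit with the replicate block, members lower were 47 with pinosylvin and 47 with resveratrol, beside 43 and 43 without it. In limma, 47 members had an unadjusted p under 0.05 in the direction of a fall with GR24, 47 with pinosylvin and 48 with resveratrol. The shares of all named genes at that unadjusted threshold were not counted, here or for the lists below.

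The compounds were given at the same dose and time, so they were also compared directly, as 3 pairs in the same fit. In each pair p was adjusted over all tested probes. Levels were lower with GR24 than with pinosylvin for 9 of the 10 helicase loading genes, 3 of the 8 helicase activation genes, 4 of the 5 nucleotide supply genes, 4 of the 5 repair and checkpoint genes, all 4 E2F and cyclin E genes and 3 of the 13 polymerase, primase, clamp and single-strand binding genes. The 9 include Orc1, which was above background in neither group and kept its call in 4 of the 12 fits without 1 array. Against resveratrol these counts were 7, 4, 4, 5, 4 and 4, and each of the 2 groups of 2 tested genes had at most 1 lower. Of the 13, 4 were higher with GR24 than with pinosylvin (2 without GR24 1, GR24 2 or pinosylvin 1) and 1 than with resveratrol. With the replicate number as a block 5 of the 13 were lower with GR24 than with pinosylvin and 5 higher. Prim1, Tyms and Gins4 were higher with GR24 than with either. The stilbenes differed from each other for fewer members. Pinosylvin left 6 of the 10 helicase loading genes higher than resveratrol did, and 4 of the 5 nucleotide supply genes lower. The latter count was 2 without pinosylvin 1, resveratrol 1 or resveratrol 2, where Dut (-0.23, -0.27 and -0.28) and Rrm1 (-0.26, -0.25 and -0.27) did not pass.

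Between GR24 and pinosylvin, 29 of the 49 tested members were lower with GR24 and 6 were higher, and 14 did not pass the test. Among all named genes, 27.1% were lower and 34.8% were higher. The member median was -0.49 (range -1.91 to 0.77), beside 0.05 over all named genes. In the separate fit of 46 members, 26 were lower and 6 higher, beside 2658 and 3602 of its 9806 named genes. Of the members above background on all arrays Mcm7 differed most, at -1.66 (95% interval -1.81 to -1.51, adjusted p 1.82e-08). Mcm10, above background on 1 of the 3 GR24 arrays, differed by -1.91 (-2.27 to -1.55, adjusted p 3.77e-06). Rrm2 differed by -1.61 (-1.78 to -1.45, adjusted p 4.23e-08), and Cdc6 differed by -1.50 (-1.65 to -1.36, adjusted p 2.87e-08). For these 4 genes GR24 was the lower group.

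The 6 members higher with GR24 than with pinosylvin were led by Gins4, at 0.77 (95% interval 0.63 to 0.90, adjusted p 2.29e-06). Prim1 followed with 0.75 (0.60 to 0.89, adjusted p 4.82e-06), and Tyms with 0.66 (0.51 to 0.81, adjusted p 1.28e-05). These 3 are a helicase subunit, a primase subunit and the enzyme that makes thymidylate. Rfc5 differed by 0.31 (0.07 to 0.54, adjusted p 0.0327), Rfc4 by 0.28 (0.11 to 0.45, adjusted p 0.0092) and Pcna by 0.18 (0.05 to 0.32, adjusted p 0.0251), all of them genes of the clamp and its loader. Pcna did not pass without GR24 1 (0.19), GR24 2 (0.15), pinosylvin 1 (0.19) or pinosylvin 2 (0.17), and Rfc5 did not pass without GR24 1 (0.29), GR24 2 (0.26), pinosylvin 1 (0.30) or pinosylvin 3 (0.25).

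Of the 29 lower members, Orc1 was not above background in either group, so no difference is given for it, and its call (adjusted p 0.0384) was kept in 4 of the 12 fits without 1 array, all but those without control 1, control 2, GR24 2, GR24 3, pinosylvin 1, pinosylvin 3, resveratrol 1 or resveratrol 3. E2f1 differed by -0.17 (95% interval -0.31 to -0.03, adjusted p 0.0419) and did not pass in 8 of the 12 fits without 1 array, namely without any GR24 array (-0.17, -0.19 and -0.16), any pinosylvin array (-0.18, -0.16 and -0.17), control 1 or resveratrol 2 (-0.17 in both). It was -0.08 with quantile normalization and with the percentile over spots and -0.11 in the deposited values and with normexp and quantile normalization, and passed in none of these. With normexp and quantile normalization Orc6 (-0.17), Pola1 (-0.21) and Pola2 (-0.25) did not pass either. Orc6 (-0.34) did not pass without GR24 3 (-0.27) or pinosylvin 2 (-0.28), and Lig1 (-0.30) did not pass without pinosylvin 2 (-0.28). Brca2 (-0.19, adjusted p 0.116) passed without GR24 1 (-0.28), Pold1 (-0.26, adjusted p 0.086) passed without GR24 2 (-0.34), and Pole (-0.23, adjusted p 0.0955) passed without control 1 (-0.23) or pinosylvin 3 (-0.30). With the replicate number as a block, Pold1 (-0.26) and Pole (-0.23) passed as lower with GR24 and Rpa2 (0.14) passed as higher. Rpa2 also passed as higher with quantile normalization (0.22), also after normexp (0.21), and with the percentile over spots (0.23). Gins3 did so with that percentile (0.19) and within slide 1 (0.20), and Dbf4 as the mean over its probes (0.28). Members higher with GR24 numbered 4 to 6 without 1 array and 4 to 8 over the other alternatives. The primase subunit Prim2 did not pass, with an interval of -0.19 to 0.12 around a difference of -0.03, and Gmnn did not either, with -0.28 to 0.22 around -0.03.

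Between GR24 and resveratrol, 29 members were lower with GR24, 3 were higher and 17 did not pass the test. Among all named genes, 25.1% were lower and 31.7% were higher. Of the named genes that passed, 55.8% were higher, and 66.4% were higher when the percentile was taken over spots in place of probes. The member median was -0.45 (range -2.13 to 0.73), beside 0.05 over all named genes, and in the separate fit of 46 members 27 were lower and 3 higher. Of the 9806 named genes in that fit, 2478 were lower and 3314 higher. Rrm2 differed most, at -2.13 (95% interval -2.30 to -1.97, adjusted p 1.09e-08). Mcm10, with 1 GR24 array above background, differed by -2.08 (-2.44 to -1.71, adjusted p 2.59e-06) and Tk1 by -1.54 (-1.79 to -1.28, adjusted p 1.81e-06). All 3 were lowest with GR24.

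The 3 members higher with GR24 than with resveratrol were Prim1 at 0.73 (95% interval 0.58 to 0.88, adjusted p 6.99e-06), Tyms at 0.30 (0.15 to 0.45, adjusted p 0.00351) and Gins4 at 0.27 (0.13 to 0.41, adjusted p 0.00381). All 3 kept their calls in each of the 12 fits without 1 array. Mcm6, which fell with both, did not pass in this pair, with an interval of -0.16 to 0.35 around a difference of 0.09. Cdt1 (-0.45, adjusted p 0.0327) did not pass without GR24 1 (-0.48), GR24 2 (-0.45), GR24 3 (-0.44), resveratrol 1 (-0.43), resveratrol 2 (-0.44) or resveratrol 3 (-0.49). Mcm2 (-0.28) did not pass without GR24 3 (-0.24) or resveratrol 1 (-0.25), and without resveratrol 1 neither Chaf1b (-0.42, then -0.34) nor Pola2 (-0.57, then -0.39) passed. Orc1, above background in neither group, did not pass (adjusted p 0.105) but passed without GR24 1. Cdc7 (-0.21, adjusted p 0.11) passed without resveratrol 2 (-0.28), and Rfc2 (0.15, adjusted p 0.0735) passed with the replicate number as a block. Rfc2 also passed as higher with GR24 with quantile normalization (0.23), also after normexp (0.25), and in the deposited values (0.25). It did so too with normexp before the percentile (0.17) and with the percentile over spots (0.26). With normexp before the percentile, Pola1 (-0.22), Pola2 (-0.19) and Pole (-0.19) did not pass. Mcm2 (-0.17) and Mcm4 (-0.18) did not pass with the percentile over spots, nor did Mcm3 (-0.24) as the mean over its probes.

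Between the stilbenes, which differ by the further hydroxyl group of resveratrol, 11 members were lower with pinosylvin, 6 were higher and 32 did not pass the test. Among all named genes, 8.27% were lower and 8.16% were higher (888 and 876 genes, and 1509 and 1534 with the replicate number as a block). The counts were 477 and 495 with no filter, and 610 and 637 with only the 6 arrays compared. The member median was -0.06 (range -0.78 to 0.75), beside 0.00 over all named genes. In the separate fit of 46 members, 12 were lower and 6 higher, since Tk1 passed there (-0.37, adjusted p 0.0465). Of the 9806 named genes in that fit, 892 were lower and 859 higher. The 6 members higher with pinosylvin were all genes of helicase loading and the MCM ring.

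Mcm6 differed most among these 6, at 0.75 (95% interval 0.50 to 1.01, adjusted p 0.0018). Mcm2 differed by 0.45 (0.26 to 0.63, adjusted p 0.00535), and Mcm3 by 0.45 (0.27 to 0.63, adjusted p 0.0046). Mcm7 differed by 0.32 (0.17 to 0.46, adjusted p 0.0106). These 4 subunits of the helicase ring kept their calls in all 12 fits without 1 array. The loading factors Cdt1, at 0.65 (0.30 to 1.00, adjusted p 0.0202), and Cdc6, at 0.23 (0.09 to 0.38, adjusted p 0.0394), did not. Cdt1 did not pass without pinosylvin 1 (0.65), pinosylvin 2 (0.60), resveratrol 2 (0.67) or resveratrol 3 (0.61), and Cdc6 did not pass without control 1 (0.23), GR24 1 (0.23), GR24 2 (0.23), any pinosylvin array (0.22, 0.22 and 0.25) or any resveratrol array (0.23, 0.26 and 0.21).

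Of the 11 members lower with pinosylvin, Brca2 differed most, at -0.78 (95% interval -0.99 to -0.57, adjusted p 0.000443). Rrm2 differed by -0.52 (-0.68 to -0.35, adjusted p 0.00128) and Gins4 by -0.50 (-0.63 to -0.36, adjusted p 0.000497). The helicase gene Gins3 was also lower, at -0.43 (-0.60 to -0.27, adjusted p 0.00365), and so were Tyms, at -0.36 (-0.51 to -0.21, adjusted p 0.00507), and the nuclease Exo1, at -0.31 (-0.45 to -0.17, adjusted p 0.00891). These 6 kept their calls in all 12 fits without 1 array. Pole (-0.38), Rfc4 (-0.28), Dut (-0.28), Rrm1 (-0.27) and Pcna (-0.21) were lower as well and did not keep them.

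Pole did not pass without GR24 1 or GR24 2 (-0.38 in both), any pinosylvin array (-0.41, -0.43 and -0.31) or any resveratrol array (-0.32, -0.42 and -0.42). With normexp Pole was -0.10 (adjusted p 0.509) before the percentile and -0.22 before quantile normalization, and it was -0.24 as the mean over its probes, where Rrm1 (-0.16) did not pass either. Pcna did not pass in 11 of the 12 fits without 1 array, all but that without resveratrol 3, at -0.22 to -0.17. Rfc4 did not pass without pinosylvin 1 (-0.25), pinosylvin 2 (-0.27), resveratrol 2 (-0.29) or resveratrol 3 (-0.24). Dut did not pass without pinosylvin 1 (-0.23), pinosylvin 2 (-0.28) or any resveratrol array (-0.27, -0.28 and -0.28). Rrm1 did not pass without any pinosylvin array (-0.26, -0.29 and -0.27), resveratrol 1 (-0.25) or resveratrol 2 (-0.27). Tk1 (-0.37, adjusted p 0.0556) passed without pinosylvin 2 (-0.46). Blocked by replicate number, 16 members were lower and 6 higher, and Tk1, Dbf4, Fancd2, Rfc5 and Rpa2 passed as well.

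Most members did not pass between the stilbenes, which does not show that they did not differ. The intervals of some were narrow, such as that of Prim1, from -0.16 to 0.13 around -0.01, and that of Prim2, from -0.15 to 0.17 around 0.01. Others were wide, such as that of E2f7, from -0.70 to 0.64 around -0.03.

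**Figure D3:**
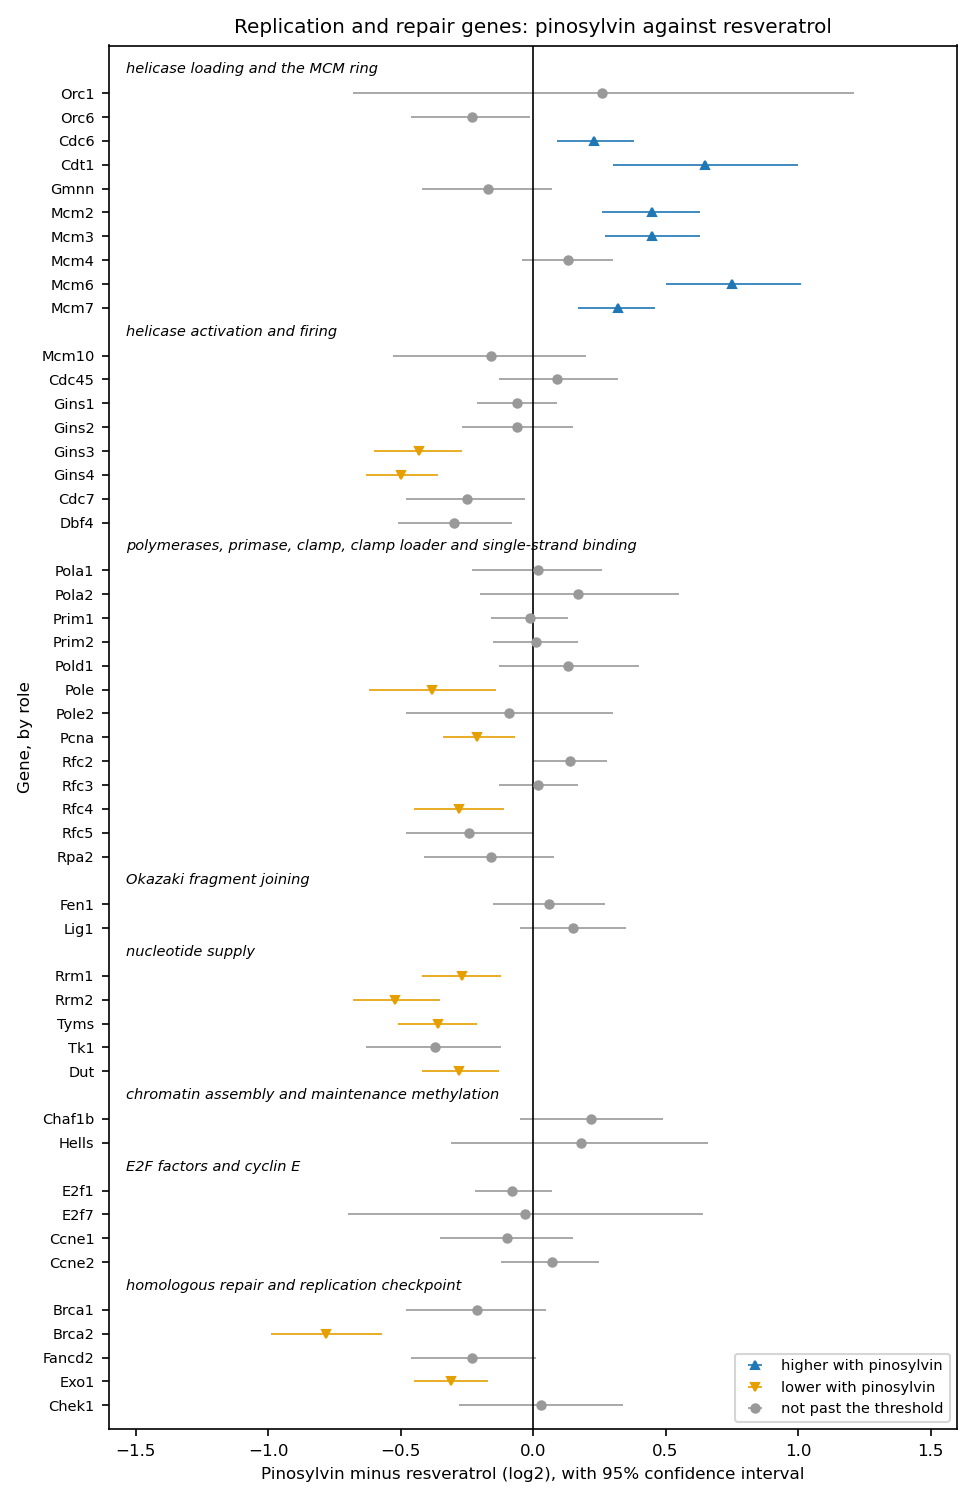
Log2 difference between pinosylvin and resveratrol for each tested member, with bars for the 95% interval, grouped by role. Genes of the MCM ring lie above 0 up to 0.75 and Brca2 lies lowest, at -0.78.

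Beside the members, 10 lists of other genes of DNA replication and repair were counted in the same fit, against control. As given above, 26.7% of all named genes were lower and 36.1% higher with GR24. The genes named are among those with large differences that passed and those of small counts, and not every gene counted is named.

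Of 24 other replication genes tested (29 listed), 12 fell and 5 rose with GR24 (median -0.30), 11 fell and 0 rose with pinosylvin (-0.28), and 9 fell and 0 rose with resveratrol (-0.21). In limma, 2 were higher with pinosylvin and 0 with resveratrol at an unadjusted p under 0.05. The histone chaperone Asf1b fell most with GR24 (-2.47, SE 0.077), followed by Dscc1, a subunit of a clamp loader (-1.84, SE 0.071). The origin recognition genes Orc4 (1.07, SE 0.078) and Orc5 (0.74, SE 0.14) rose, while Orc3 (-1.02, SE 0.076) and the members Orc1 and Orc6 of the same complex fell. With pinosylvin the helicase gene Recql4 (-1.61, SE 0.17) and Asf1b (-1.43, SE 0.077) fell most. With resveratrol Dscc1 (-0.99, SE 0.071) and the fork protection gene Timeless (-0.98, SE 0.062) fell most. The other genes that rose with GR24 were Orc2 (0.54), Mcmbp (0.31) and Pole3 (0.30). With pinosylvin 1 gene was higher without control 3, without GR24 2, and with the replicate number as a block.

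Of 12 other nucleotide supply genes tested (13 listed), 4 fell and 4 rose with GR24 (median 0.04), 6 fell and 0 rose with pinosylvin (-0.47), and 5 fell and 1 rose with resveratrol (-0.34). In limma, 1 was higher with pinosylvin at an unadjusted p under 0.05. Nt5c, a nucleotidase, moved in opposite directions, since it rose with GR24 (1.36, SE 0.11) and fell with pinosylvin (-1.0) and resveratrol (-0.79). Samhd1, which breaks down deoxynucleotides, rose with GR24 (1.04, SE 0.12). The deaminase Dctd fell with GR24 (-0.70, SE 0.096) and resveratrol (-0.61), and Dctpp1, which clears dCTP, fell with GR24 (-0.61, SE 0.078) and pinosylvin (-1.04). Others that passed were Dtymk (-0.50), Tk2 (0.84) and Dguok (0.37) with GR24, and Dck (-0.59), Dctpp1 (-0.57) and Nme1 (-0.48) with resveratrol. The Dck call was lost without control 2, control 3, resveratrol 1 or resveratrol 2 (-0.71 to -0.48 over the fits without 1 array). Dguok, a mitochondrial kinase, rose with resveratrol (0.27, SE 0.066), and its call and the count of 1 were lost without control 2, control 3 or resveratrol 2, at 0.24 to 0.29 over the fits without 1 array.

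Of 13 other E2F, pocket protein and G1 genes tested (17 listed), 7 fell and 2 rose with GR24 (median -0.21), 1 fell and 2 rose with pinosylvin (-0.03), and 2 fell and 1 rose with resveratrol (-0.12). The count lower with GR24 was 5 to 8 without 1 array and 3 at its lowest over all alternatives. Ccnd3, a D-type cyclin, fell with GR24 (-1.65, SE 0.082) and resveratrol (-0.38), and its partner kinase Cdk6 fell with GR24 (-1.06, SE 0.095). The pocket protein gene Rbl2 (0.78, SE 0.086) and E2f4 (0.27, SE 0.075), which act together as repressors, rose with GR24. E2f6, another repressor, rose with pinosylvin (0.54, SE 0.076) and resveratrol (0.30), and Cdk2 fell with resveratrol (-0.47, SE 0.081). The resveratrol call of E2f6 was lost without control 1, control 3, resveratrol 1 or resveratrol 3, which left 0 of the list higher, with values of 0.24 to 0.37 over the fits without 1 array. With pinosylvin the fall of the E2F partner Tfdp1 (-0.28, SE 0.083) was kept in 3 of the 12 fits without 1 array (-0.36 to -0.23) and the rise of Cdc25a (0.21, SE 0.06) in 2 (0.19 to 0.23), so that the list had 0 lower in 9 of the fits and 1 higher in 10.

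Of 19 other homologous repair and Fanconi genes tested (30 listed), 12 fell and 4 rose with GR24 (median -0.38), 12 fell and 0 rose with pinosylvin (-0.78), and 9 fell and 0 rose with resveratrol (-0.31). In limma, 0 were higher with either stilbene at an unadjusted p under 0.05. Ube2t, the ubiquitin-conjugating enzyme of the Fanconi pathway, fell with each compound (-2.74, -1.42 and -0.88, SE 0.1). Rad51c, a recombination gene, fell with pinosylvin (-1.24, SE 0.089) and resveratrol (-1.13). Mre11 (0.84, SE 0.1) and Nbn (0.63, SE 0.078), which bind broken ends together, rose with GR24, as did Rad51d (0.53) and Fancc (0.37). Rad51d did not pass without control 2 or GR24 1 (0.48 to 0.56 over the fits without 1 array), and Fancc did not pass without control 1, GR24 1 or GR24 2 (0.34 to 0.43), so that 2 were higher without GR24 1.

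Of 8 end joining genes tested (10 listed), 1 fell and 5 rose with GR24 (median 0.31), 1 fell and 0 rose with pinosylvin (0.10), and 0 fell and 1 rose with resveratrol (0.11). In limma, at an unadjusted p under 0.05, 0 were higher with pinosylvin and 0 lower with resveratrol. Nhej1 (1.15, SE 0.13) and Lig4 (0.84, SE 0.095), which join ends together, rose with GR24, and Xrcc5 (-0.32, SE 0.074), a subunit of the Ku end-binding protein, fell. Xrcc6, the other Ku subunit, rose with resveratrol (0.28, SE 0.057), and the nuclease gene Dclre1c fell with pinosylvin (-0.24, SE 0.059). The Dclre1c call was lost, leaving 0 lower, without control 1, pinosylvin 2 or pinosylvin 3 (-0.26 to -0.21 over the fits without 1 array), and 3 genes were higher with GR24 without control 3, GR24 1 or GR24 2. The others that rose with GR24 were Dclre1c (0.32), Poll (0.32) and Xrcc4 (0.31), of which Poll was lost without those 3 arrays (0.24 to 0.38 over the fits without 1 array) and Xrcc4 also without control 2 (0.25 to 0.39). With the replicate number as a block, 2 were higher with pinosylvin and 3 with resveratrol.

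Of 6 mismatch repair genes tested (7 listed), 4 rose with GR24 (median 0.36), 1 with pinosylvin (-0.11) and 1 with resveratrol (0.00). Pms1 (1.17, SE 0.092) and Msh3 (0.54, SE 0.074) rose with GR24, as did Mlh3 (0.47) and Pms2 (0.25). Mlh3 rose with resveratrol (0.45, SE 0.082) and Msh3 with pinosylvin (0.30). The pinosylvin call of Msh3 was lost, leaving 0 higher, without control 1, control 3, pinosylvin 1 or pinosylvin 2 (0.27 to 0.37 over the fits without 1 array).

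Of 17 base excision and single-strand break repair genes tested (18 listed), 3 fell and 8 rose with GR24 (median 0.21), 1 fell and 0 rose with pinosylvin (-0.15), and 3 fell and 1 rose with resveratrol (-0.13). In limma, 0 were higher with pinosylvin at an unadjusted p under 0.05. Neil3, a glycosylase of dividing cells, fell with each compound (-2.82, -1.95 and -0.57, SE 0.1). Parp1, which senses strand breaks, fell with GR24 (-0.36, SE 0.083), while Apex1 (0.71, SE 0.09), which cuts at lost bases, and Aptx (0.66, SE 0.077), which cleans broken ends, rose. The uracil glycosylase Ung fell with resveratrol (-0.69, SE 0.11) and Smug1, another, rose (0.27, SE 0.073). The Smug1 call was lost, leaving 0 higher, without any control array or resveratrol 1 (0.22 to 0.30 over the fits without 1 array). Xrcc1 (-0.32) also fell with GR24 and Mpg (-0.33) with resveratrol, and the Mpg call was lost without control 1, control 2 or resveratrol 3 (-0.39 to -0.26 over the fits without 1 array). Pinosylvin lowered 3 without GR24 3 and 2 without pinosylvin 1. With the replicate number as a block, 5 were lower with GR24, 8 with pinosylvin and 7 with resveratrol.

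Of 12 nucleotide excision repair genes tested (15 listed), 1 fell and 6 rose with GR24 (median 0.16), 0 fell and 0 rose with pinosylvin (0.05), and 1 fell and 0 rose with resveratrol (0.00). In limma, at an unadjusted p under 0.05, 0 were lower and 1 higher with pinosylvin and 1 was higher with resveratrol. The damage sensor gene Ddb1 fell with GR24 (-0.83, SE 0.13), Ercc8 (0.84, SE 0.13) and the helicase gene Ercc3 (0.67, SE 0.083) rose, and Ddb2, the partner of Ddb1, fell with resveratrol (-0.45, SE 0.09). Without control 3, 2 were lower with GR24 and 2 with resveratrol. Blocked by replicate number, 2 were lower with GR24 and 2 with resveratrol, and 1 was higher with pinosylvin and 2 with resveratrol.

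Of 10 checkpoint sensors and kinases tested (12 listed), 4 fell and 3 rose with GR24 (median -0.23), 5 fell and 1 rose with pinosylvin (-0.28), and 2 fell and 1 rose with resveratrol (-0.15). H2ax, the histone that marks breaks, fell with each compound (-1.14, -1.0 and -0.51, SE 0.077). Tp53bp1, which binds near breaks, fell with GR24 (-1.20, SE 0.07) and rose with pinosylvin (0.23) and resveratrol (0.30). Rad1 (0.81, SE 0.076) and Rad17 (0.81, SE 0.074), of the checkpoint clamp and its loader, rose with GR24, Chek2 fell with pinosylvin (-0.81, SE 0.15) and Atm fell with resveratrol (-0.39, SE 0.096). The pinosylvin call of Tp53bp1 was lost without any 1 of the 12 arrays (0.18 to 0.27), leaving 0 higher. Its resveratrol call was lost without control 2, resveratrol 2 or resveratrol 3 (0.28 to 0.32 over the fits without 1 array), leaving 0 higher, and that of Atm without control 1 or resveratrol 2 (-0.45 to -0.30 over those fits). The others that passed were Chek2 (-0.45), Atm (-0.34) and Atrip (0.28) with GR24, and Mdc1 (-0.49), Atm (-0.38) and Wee1 (-0.37) with pinosylvin. Of these, Chek2 was lost without control 1, control 3 or GR24 2 (-0.55 to -0.31 over the fits without 1 array), and Atrip without control 3, GR24 1 or GR24 3 (0.19 to 0.32). Atm was lost with pinosylvin without control 1, pinosylvin 1 or pinosylvin 2 (-0.43 to -0.29), and Wee1 without control 1, control 3 or any pinosylvin array (-0.41 to -0.32). Pinosylvin lowered 3 without control 1, pinosylvin 1 or pinosylvin 2, and resveratrol lowered 1 without control 1.

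Of 6 translesion synthesis genes tested (9 listed), 2 fell and 2 rose with GR24 (median -0.02), 2 fell and 1 rose with pinosylvin (-0.16), and 2 fell and 1 rose with resveratrol (-0.13). The polymerase gene Polq fell with GR24 (-1.28, SE 0.22), Polh, another, fell with each compound (-0.26, -0.51 and -0.37, SE 0.068), and Polk rose with GR24 (0.36, SE 0.078). Mad2l2, a subunit of polymerase zeta, rose with pinosylvin (0.75, SE 0.087) and resveratrol (0.32), and Rad18, which marks the clamp for these polymerases, rose with GR24 (0.27, SE 0.1) and fell with pinosylvin (-0.68) and resveratrol (-0.34). The GR24 call of Rad18 was kept in 4 of the 12 fits without 1 array (0.21 to 0.37), with 1 higher in the other 8. Its resveratrol call was kept in 2 (-0.39 to -0.26), with 1 lower in the other 10. The resveratrol call of Mad2l2 was lost without control 1, control 3, resveratrol 1 or resveratrol 2 (0.26 to 0.37 over the fits without 1 array), leaving 0 higher.

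Genes that mark cell types or cell states were counted in the same fit, and their part in the result was not tested. Markers of mitosis fell together with the replication genes. Of 10 mitosis markers, 9 were tested and all 9 fell with each compound, with median differences of -2.83, -1.74 and -1.02, and Top2a had no probe. Their mean level was 2.80, 2.79 and 2.72 on the control arrays, -0.08, -0.04 and -0.22 with GR24, 1.05, 1.16 and 0.97 with pinosylvin, and 1.77, 1.96 and 1.76 with resveratrol. The mean level of the 49 members was 1.10, 1.15 and 1.06 on the control arrays, -0.05, -0.08 and -0.18 with GR24, 0.34, 0.36 and 0.40 with pinosylvin, and 0.43, 0.43 and 0.38 with resveratrol. In both lists the control arrays were highest and the GR24 arrays lowest. Of the mitosis markers, the probe of Cdk1, the mitotic kinase, was the brightest (5.07 in control). Here and below the brightest probe of a list is named as a signal, which does not rank the amounts of RNA.

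Myotube markers moved with the compounds in another order. Of 16 markers, 14 were tested, and Mymk and Ttn had no probe. With GR24 12 fell and 0 rose (median -1.70, and 0 higher in limma at an unadjusted p under 0.05), with Myog, the factor that starts terminal differentiation, at -5.83 and the actin gene Acta1 at -3.88. Des (-0.09, adjusted p 0.566) and Chrna1 (-0.56, adjusted p 0.138) did not pass. With pinosylvin Myh8 fell (-0.44) and Myog (0.73), Tnnt3 (0.54) and Tnnc2 (0.25) rose (median 0.10), and with resveratrol 8 fell and 0 rose (median -0.31, and 0 higher at an unadjusted p under 0.05). The mean level was 5.32, 5.38 and 5.24 on the control arrays, 3.41, 3.32 and 3.40 with GR24, 5.46, 5.48 and 5.41 with pinosylvin, and 4.94, 5.0 and 4.92 with resveratrol. GR24 was the lowest group and pinosylvin the highest. All 14 tested markers were above background on all 12 arrays, and the brightest probe was that of Myl11, a fast muscle myosin light chain (9.17 in control). The resveratrol count was 4 without control 1, 3 without control 2, 5 without pinosylvin 1, 5 without pinosylvin 2, 4 without resveratrol 1 and 3 without resveratrol 3. The pinosylvin rise of Tnnc2 was kept in 2 of the 12 fits without 1 array (0.19 to 0.32). Without control 3, 2 were lower with pinosylvin, and with the replicate number as a block 2 were lower and 5 higher with pinosylvin.

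Of 8 markers of undifferentiated myoblasts, 7 were tested, and Id3 was not above background on all 3 arrays of any group. With GR24 Cdh15 (-1.71), Vim (-0.91) and Myf5 (-0.88) fell and Id2 (1.22) and Sdc4 (0.67) rose. With pinosylvin Id1 (-0.77), Vim (-0.47) and Id2 (-0.33) fell and Sdc4 (0.48) rose, and with resveratrol Vim (-0.63) and Cdh15 (-0.43) fell and Sdc4 (0.29) rose. Their mean level was 1.32, 1.26 and 1.23 on the control arrays, 0.99, 1.05 and 0.95 with GR24, 1.18, 1.20 and 1.05 with pinosylvin, and 1.17, 1.20 and 1.11 with resveratrol, with the brightest probe that of Vim. Cdh15 did not pass with resveratrol without control 1, control 2, pinosylvin 1, resveratrol 2 or resveratrol 3 (-0.55 to -0.33 over the fits without 1 array), leaving 1 lower, and Id2 did not pass with pinosylvin without control 1, control 2, pinosylvin 1 or pinosylvin 3 (-0.41 to -0.27). Of 7 fibroblast markers, all tested, 6 fell and 1 rose with GR24, Thy1 (-0.63) and Col1a1 (-0.34) fell and Lum (0.53) and Pdgfra (0.43) rose with pinosylvin, and Col1a1 (-0.43) fell and Pdgfra (0.35) rose with resveratrol. Their mean level was 2.90, 2.88 and 2.86 on the control arrays, 2.25, 2.25 and 2.14 with GR24, 2.90, 2.88 and 2.91 with pinosylvin, and 2.72, 2.79 and 2.76 with resveratrol, with the brightest probe that of Col1a2. The marker higher with GR24 was Pdgfra (0.23), which did not pass without control 3, GR24 1 or GR24 2 (0.16 to 0.29 over the fits without 1 array), leaving 0 higher, and with the replicate number as a block 2 were lower with resveratrol. Of 4 adipocyte markers 0 were tested. Adipoq, Cidec and Lep were not above background on all 3 arrays of any group, and Plin1 had no probe.

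Most of the tested members fell, and the promoters of the listed members were searched for short words known from genes of the cell cycle. The sequences are the RefSeq promoters of build GRCr8, and 48 of the 57 members had an entry, while Mcm4, Cdc6, Gins4, Orc1, Rrm2, E2f1, E2f8, Ccne2 and Blm had none. The 48 include Mcm5, Rpa1, Chaf1a, Uhrf1, Dnmt1 and Clspn, which were not tested, and Prim1 and Tyms, which did not fall with GR24. The shares below are thus those of the list and not of the genes that fell. The E2F word was TTTCCCGC, TTTCGCGC, TTTGCCGC or TTTGGCGC, and the shorter word was the same without its first T, so that each E2F word also holds a shorter word. The CCAAT box was CCAAT and the CHR word was TTTGAA or TTCGAA, and both strands were searched. In the 250 bases before the gene start, 11 members (22.9%) held the E2F word, against 1.59% of all 33469 promoters, and 19 (39.6%) held the shorter word, against 7.51%. Of the 11, Mcm5 and Uhrf1 were not tested and Tyms did not fall with GR24. The CCAAT box was in 25 members (52.1%), against 33.9%, and the CHR word in 8 (16.7%), against 17.5%. In the whole entry of 300 bases the E2F word was in 45.8% of members and 1.97% of promoters, and the shorter word in 70.8% and 9.35%. A match is a description of the letters and shows no binding, and no match says only that these letters are not in the window.

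The promoters of 6 members are shown, chosen after their values were seen: Mcm10 and Tk1 as members with a large GR24 fall, Prim1 and Tyms as the members that did not fall with GR24, and Mcm6 and Brca2 as the members that differed most between the stilbenes. Each runs 5′ to 3′ on the strand of its gene over the 250 bases before the gene start, and capitals mark the E2F words, shorter words, CCAAT boxes and CHR words on either strand. Their places are chr17:78175137-78175386 on the plus strand for Mcm10, chr10:103544778-103545027 on the minus strand for Tk1, chr9:120776084-120776333 on the minus strand for Tyms, chr7:1031212-1031461 on the plus strand for Prim1, chr13:42404353-42404602 on the minus strand for Mcm6, and chr12:4895197-4895446 on the plus strand for Brca2. Mcm6 held 2 E2F words, 4 shorter words and 2 CCAAT boxes, and some of its words overlap each other. Mcm10 held 1 shorter word and 2 CCAAT boxes, Tyms held 1 E2F word with the shorter word inside it, and Tk1, Prim1 and Brca2 held 0 of these words.
Mcm10: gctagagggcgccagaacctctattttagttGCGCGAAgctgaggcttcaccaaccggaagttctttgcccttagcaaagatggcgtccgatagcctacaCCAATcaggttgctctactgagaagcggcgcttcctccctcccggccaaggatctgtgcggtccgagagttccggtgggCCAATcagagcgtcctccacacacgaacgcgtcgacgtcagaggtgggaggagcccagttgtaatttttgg
Tk1: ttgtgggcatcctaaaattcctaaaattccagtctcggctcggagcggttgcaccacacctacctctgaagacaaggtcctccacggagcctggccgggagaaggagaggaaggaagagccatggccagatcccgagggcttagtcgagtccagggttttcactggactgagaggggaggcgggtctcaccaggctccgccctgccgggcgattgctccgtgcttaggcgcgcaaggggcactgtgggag
Tyms: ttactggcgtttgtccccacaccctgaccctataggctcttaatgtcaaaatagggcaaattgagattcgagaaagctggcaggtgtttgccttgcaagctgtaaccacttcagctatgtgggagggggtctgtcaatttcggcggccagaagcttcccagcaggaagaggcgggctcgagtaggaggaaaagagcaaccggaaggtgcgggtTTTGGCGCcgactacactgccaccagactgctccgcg
Prim1: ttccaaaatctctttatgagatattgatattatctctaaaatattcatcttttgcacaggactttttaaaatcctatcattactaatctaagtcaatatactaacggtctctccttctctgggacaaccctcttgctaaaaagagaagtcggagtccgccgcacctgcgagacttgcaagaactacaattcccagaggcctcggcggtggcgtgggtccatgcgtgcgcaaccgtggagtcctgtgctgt
Mcm6: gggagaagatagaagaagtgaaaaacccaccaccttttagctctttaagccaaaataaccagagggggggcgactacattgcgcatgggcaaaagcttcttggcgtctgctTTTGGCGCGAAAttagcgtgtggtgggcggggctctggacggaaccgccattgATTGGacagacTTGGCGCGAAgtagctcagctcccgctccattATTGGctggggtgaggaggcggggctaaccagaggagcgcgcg
Brca2: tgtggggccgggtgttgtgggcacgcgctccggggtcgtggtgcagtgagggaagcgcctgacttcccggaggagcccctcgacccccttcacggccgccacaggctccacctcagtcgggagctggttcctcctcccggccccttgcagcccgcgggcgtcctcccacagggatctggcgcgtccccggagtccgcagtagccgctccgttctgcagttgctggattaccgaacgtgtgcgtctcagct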

How the data were processed

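The deposited array files hold intensity values that the authors extracted with Agilent Feature Extraction 12.0.0.7, background subtracted by that software. The authors also deposited log2 values for 25848 probes, normalized between arrays by a method not stated in full, which served as an alternative. The processed signal of spots not marked as outliers was averaged per probe on the log2 scale, and each array was then scaled by subtracting its 75th percentile, taken over the non-control probes. The percentile was also computed over spots, and both versions had been run when the version over probes was kept, since it was the written plan. Probes were named by RefSeq identifier (21109, 46.3%). limma 3.58.1 in R 4.3.3 with data.table (version 1.17.8) fitted 1 mean per group over the 12 arrays, and Benjamini-Hochberg adjustment ran over the 24262 probes tested, of which 87.4% were above background on all arrays. Precision is limited by 3 arrays per group.

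Every member is accounted for. Levels per array are given for the members with the most negative and most positive GR24 difference of each role group and for members higher with any compound, and from the other lists up to 2 of the most negative and 2 of the most positive genes that passed are named. Genes named from a count of 5 or fewer, and marker genes, were chosen after their values were seen. A few genes of these lists, and the count of mismatch repair genes that were lower, are not reported here. Members and lists were chosen with earlier results of these data known. Alternatives were other normalizations, background corrections, filters, fits, blocks and the leaving out of each array. The samples share replicate numbers of independent experiments, and the deviations of probes from their group mean correlated at 0.19 to 0.74 in all 18 pairs of arrays with the same number, and at -0.66 to 0.48 in the 36 pairs with different numbers, of which 12 were over 0.1. These 12 all join replicates 1 and 2, which share slide 1, at 0.22 to 0.48, beside 0.19 to 0.47 for the same number on that slide, so slide and replicate number cannot be told apart. With this pairing as a replicate block, members lower were 47 with pinosylvin.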

Additional observations from a re-analysis of the deposited data

How the results depend on the processing

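Under 28 alternatives, 12 of them without 1 array and 1 (the percentile over spots) chosen after seeing the data, no difference that passed the test changed its direction. A member value that did not pass under either setting was counted as kept even where its sign changed. The values within slide 2, which had no test, are in the total below and could neither lose nor gain a call. Of 1369 member values per comparison, calls lost and gained were 38 and 2 for GR24, 26 and 23 for pinosylvin and 22 and 37 for resveratrol against control, 53 and 17 for GR24 minus pinosylvin, 31 and 10 for GR24 minus resveratrol, and 82 and 20 for pinosylvin minus resveratrol. Beyond the calls named above, the replicate block changed no other call of a member.

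The median GR24 difference of the members moved by more than the spread between arrays (SD 0.05) to -1.06 with quantile normalization, -0.90 and -0.87 with normexp background correction before the percentile and before quantile normalization, -0.95 in the series table, -1.01 with the percentile over spots, -1.19 in slide 1 and -1.24 in slide 2. It was -1.20 to -1.11 without 1 array. The pinosylvin median moved to -0.63, -0.61 and -0.63 with normexp before the percentile, before quantile normalization and in the series table, and to -0.59 in slide 2 (-0.72 to -0.68 without 1 array). The resveratrol median moved in the same order to -0.55, -0.52 and -0.57, and to -0.73 in slide 2 (-0.69 to -0.62 without 1 array).

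Members higher with GR24 were 0 with normexp before the percentile, 0 with no filter, 0 with only the 6 arrays compared, 2 (Prim1 and Tyms) with the percentile over spots, and 0 to 1 without 1 array. With the percentile over spots Gins4 (-0.15), Rfc2 (-0.15), Rfc5 (-0.18) and Hells (-0.49) did not pass with GR24. That percentile shifted the median of all named genes by 0.10 for GR24 minus control and 0.11 for GR24 minus resveratrol. Between the stilbenes, 3 were higher and 5 lower with no filter, and 6 lower with only the 6 arrays compared. Without 1 array, 4 to 6 were higher and 6 to 10 lower. The cause was not tested. Signal over background limits Orc1, Mcm10 and E2f7 most.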
